A study of Saccharomyces cerevisiae with 22 samples.

Results

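Budding yeast of strain W303 that overexpressed a V5-tagged form of PSD1 were set against yeast with an empty plasmid, by sequencing of polyA RNA. The V5-PSD1 group (5 libraries) carried a 2µ plasmid, which is kept at many copies per cell, with V5-PSD1 behind the galactose-inducible GAL1-10 promoter. The untagged PSD1 group (6 libraries), used here where the tag itself is in question, carried the same kind of plasmid without the V5 epitope. The empty-vector group (5 libraries) carried a 2µ plasmid with no insert. Every group, the empty vector included, was grown on 2% raffinose in rich medium and induced with 2% galactose over 4 h. The V5-PSD1 and empty-vector libraries make up 10 of the 22 libraries of the study, and the other group not described here is a PDR3 deletion with the PSD1 plasmid. Each group has libraries from library series 5 and 6, named by how their library numbers begin, and series was a term of the fit.

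Psd1 is the phosphatidylserine decarboxylase of the mitochondrial inner membrane, where it makes phosphatidylethanolamine. It is made in the cytosol and imported through both mitochondrial membranes, and overexpression of imported membrane proteins is used in the field to burden import. In budding yeast, precursors that stall or misfold are met by cytosolic chaperones under the heat shock factor Hsf1, by the proteasome under Rpn4, and by a response to import stress in which the transcription factor Pdr3 raises CIS1 and drug-efflux pumps. Galactose genes are switched on by the activator Gal4, which the repressor Gal80 holds in check until the sensor Gal3 binds galactose.

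Depth was 11426171 to 20839061 counts per library with V5-PSD1 and 8606214 to 15644886 with the empty vector, with normalization factors (TMM) of 0.941 to 0.985 in V5-PSD1 libraries and 0.997 to 1.042 in empty-vector libraries. The cells carried transcripts of mating type a: STE2, the alpha-factor receptor, averaged 371 ± 72.2 FPKM in V5-PSD1 libraries and 426 ± 31.7 FPKM in empty-vector libraries (SD, n = 5 each; FPKM is scaled to gene length and depth). STE3, the a-factor receptor of the opposite mating type, averaged 3.32 ± 0.924 FPKM in V5-PSD1 libraries and 4.03 ± 0.862 FPKM in empty-vector libraries. None of the 7 mating type a, 4 mating type alpha and 12 meiosis genes passed the test. The 12 meiosis genes summed to 166.2 to 189.5 CPM (counts scaled to the TMM-adjusted library size) in V5-PSD1 libraries and to 158.2 to 189.0 CPM in empty-vector libraries. No pair of replicates was close enough to be 1 library counted again.

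The overexpressed gene itself was far higher in every V5-PSD1 library. PSD1 (YNL169C; chromosome XIV, 316169 to 317671, minus strand, build R64, which is the sacCer3 sequence) had 19028, 23318, 30494, 24230 and 26331 CPM in V5-PSD1 replicates 1 to 5, against 603, 399, 372, 541 and 240 CPM in empty-vector replicates 1 to 5. The groups were far apart, and the empty-vector value holds the chromosomal copy alone. The log2 fold change was 5.84 ± 0.33 (SE), or 57.3-fold, with an edgeR adjusted p of 7.23e-10. Within library series it was 5.69 in series 5 and 6.02 in series 6. Counts from plasmid and chromosome cannot be told apart in the overexpressing cells. In a bulk culture, more transcript per cell and more cells with the plasmid cannot be told apart either. Cells with the untagged plasmid had 8094, 9938, 24968, 14163, 17204 and 17153 CPM, a mean of 15254 ± 6041 (SD, n = 6), and their highest library, at 24968 CPM, lay above V5-PSD1 replicates 1, 2 and 4. V5-PSD1 against PSD1 gave 0.69 ± 0.26 on the log2 scale, with an edgeR adjusted p of 0.0383. That call was lost without V5-PSD1 replicate 2, 3, 4 or 5 or PSD1 replicate 1, 2 or 4, with values up to 0.0968, when these groups were fitted alone (0.0517), and within series 5 (0.249) or series 6 (0.0786).

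The 3 loci within 2 kb of chromosomal PSD1 did not pass the test. APC1, a subunit of the anaphase-promoting complex, had a log2 fold change of -0.28 ± 0.17. FMP41 and SKO1, a repressor of osmotic stress genes, had log2 fold changes of 0.06 ± 0.08 and 0.04 ± 0.06. None of 7 marker genes of the strain and of common plasmids passed. Among them URA3 had 13154 to 17776 CPM in V5-PSD1 libraries and 11661 to 16913 CPM in empty-vector libraries, a log2 fold change of 0.03 ± 0.13 (edgeR adjusted p = 0.923). The labels do not name the plasmid marker.

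**Figure D1:**
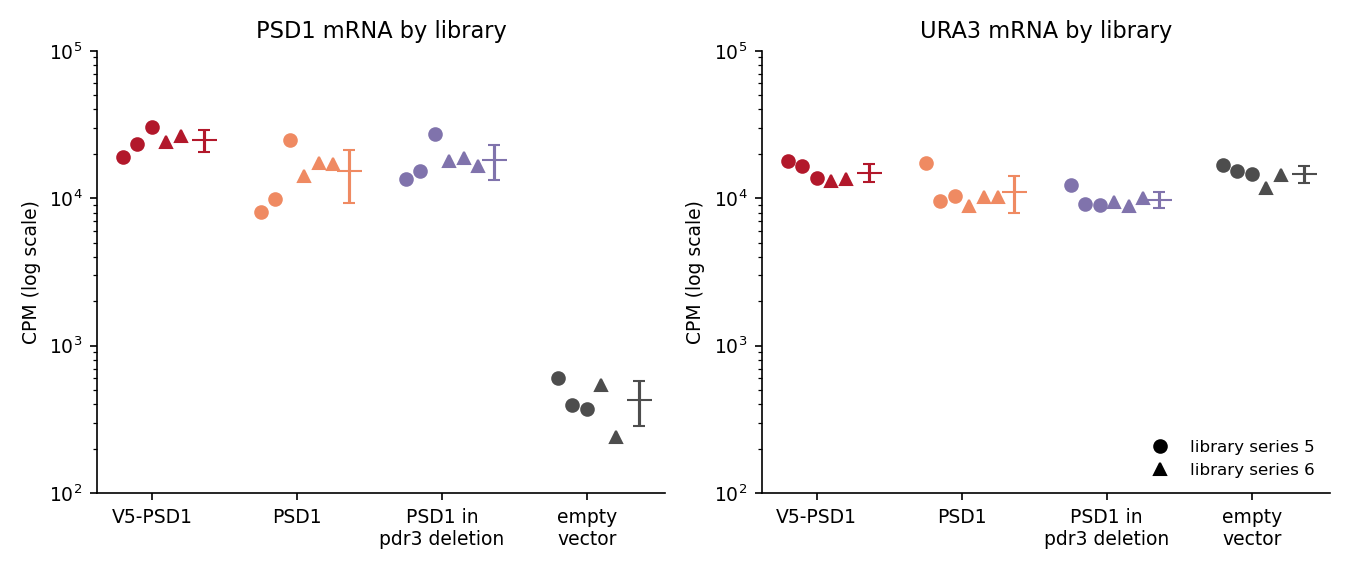
Level of PSD1 (left) and URA3 (right) in CPM on a log axis in the V5-PSD1, PSD1, PSD1 with PDR3 deletion and empty-vector groups, with 1 point per library, circles for series 5 and triangles for series 6; bars give the mean and SD of each group. PSD1 sits between 19028 and 30494 CPM in the 5 V5-PSD1 libraries and between 240 and 603 CPM in the 5 empty-vector libraries, while the URA3 ranges of these groups overlap.

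Across the transcriptome, 159 of 6278 genes tested rose and 31 fell with V5-PSD1 against the empty vector, at an edgeR adjusted p below 0.05 (2.53% and 0.494% of genes tested, 3.03% in either direction). Of these, 25 rose and 5 fell by at least 2-fold (0.398% and 0.0796%). The median log2 fold change was 0.48 among genes that rose and -0.60 among genes that fell, while the median over all genes tested was 0.02. For 120 of the 159 genes that rose, all 5 V5-PSD1 libraries lay above all 5 empty-vector libraries, and for 28 of the 31 that fell, all 5 lay below. The same separation held for 237 (3.78%) and 77 (1.23%) of all genes tested. The sign was the same in both library series for 158 of the 159 genes that rose and all 31 that fell. At an unadjusted p below 0.05, 1087 genes differed.

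These counts depended on single libraries. The count of genes that rose was 89 without V5-PSD1 replicate 1, 98 without V5-PSD1 replicate 4, 95 without empty-vector replicate 3, 102 without empty-vector replicate 4, and 316 without V5-PSD1 replicate 3. The count of genes that fell was 18, 19 and 19 without V5-PSD1 replicates 1, 2 and 4, 19 without empty-vector replicate 3, and 67 without V5-PSD1 replicate 3. Of the 190 genes, 95 passed whichever 1 of the 10 libraries was left out. Within series 5 alone 13 genes rose (PSD1, BTN2, SSA1, SIS1, YDJ1, APJ1, FES1, HCH1, HXK1, TMA10, MBF1, TAH11 and ARG8) and 1 fell (SDD1), and within series 6 alone 151 rose and 25 fell. The share of genes that rose among those past the test was 83.7%, and it was 64.5% with limma on the deposited log2 FPKM values (89 rose and 49 fell).

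**Figure D2:**
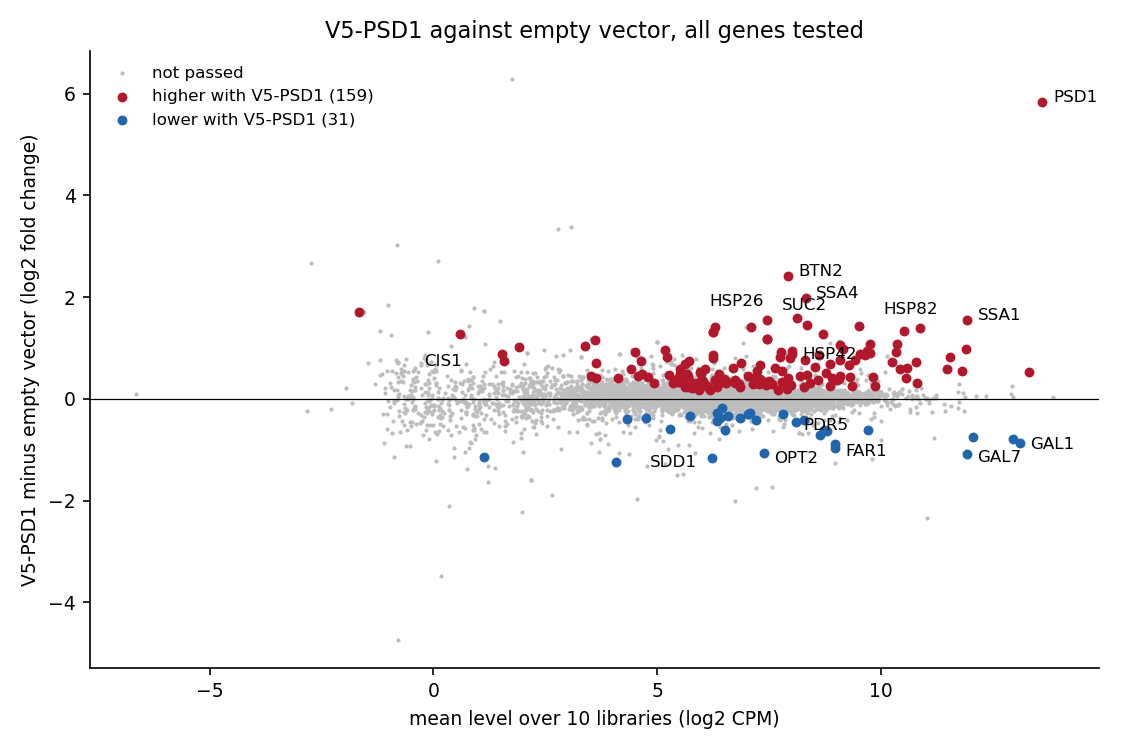
Each point is 1 of 6278 genes, with the mean level over the 10 libraries (log2 CPM) on the horizontal axis and the log2 fold change of V5-PSD1 against empty vector on the vertical axis. Red points mark the 159 genes that rose and blue points the 31 that fell. PSD1 lies at 5.84, while all genes tested span -4.73 to 6.29. Among genes past the test with at least 5 CPM, chaperone genes make up much of the upper edge. Galactose genes sit among the blue points at the right.

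All 5 genes of the list on handling of protein aggregates rose (2.53% of all genes tested did), with a median log2 fold change of 1.27. BTN2, a sorting factor that gathers misfolded proteins, had the largest rise other than that of PSD1 among genes past the test with at least 5 CPM. BTN2 (YGR142W; chromosome VII, 772454 to 773686) had 339, 441, 366, 422 and 469 CPM in V5-PSD1 libraries, against 48.7, 77.2, 80.8, 90.6 and 87.8 CPM in empty-vector libraries. The lowest V5-PSD1 library was thus well above the highest empty-vector library, and the log2 fold change was 2.41 ± 0.21 (edgeR adjusted p = 1.78e-07). CUR1, the paralog of BTN2, had a log2 fold change of 0.86 ± 0.11.

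HSP42, a small heat shock protein that builds aggregates into deposits, had 611, 680, 477, 641 and 557 CPM with V5-PSD1, against 244, 264, 276, 256 and 193 CPM with the empty vector. HSP104, the disaggregase of the cytosol, had 1582, 1815, 1659, 2001 and 1906 CPM with V5-PSD1, against 908, 932, 825, 860 and 694 CPM with the empty vector. In both genes the groups did not overlap, and the log2 fold changes were 1.27 ± 0.17 and 1.08 ± 0.17.

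HSP26, the other small heat shock protein, varied more between libraries. It had 393, 237, 254, 270 and 128 CPM with V5-PSD1, against 131, 135, 156, 44.3 and 16.1 CPM with the empty vector, so that V5-PSD1 replicate 5 lay within the empty-vector range. The log2 fold change of 1.55 ± 0.42 had an edgeR adjusted p of 0.0471. That call was lost without V5-PSD1 replicate 1, 2 or 4 and without any one of the empty-vector libraries, with adjusted p values up to 0.143. It was 1.03 within series 5 and 2.75 within series 6.

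A list of 12 genes held cytosolic Hsp70, Hsp110, their J proteins and exchange factors, and the transcription factor gene HSF1. Of the 12, 9 rose (2.53% of all genes tested did), with a median log2 fold change of 0.89 over the list. SSA4 (chromosome V, 364589 to 366517), the strongly stress-inducible Hsp70, had 485, 535, 467, 561 and 515 CPM with V5-PSD1, against 128, 156, 173, 113 and 80.2 CPM with the empty vector. SSA1 (chromosome I, 139503 to 141431), an abundant Hsp70, had 5995, 6225, 5525, 5814 and 5747 CPM with V5-PSD1, against 1898, 2238, 1798, 2222 and 1793 CPM with the empty vector. Neither gene had overlapping groups; their log2 fold changes were 1.99 ± 0.26 and 1.56 ± 0.11, with edgeR adjusted p values of 5.5e-05 and 3.02e-08. SSA1 and SSA2 are near-identical copies, as are SSA3 and SSA4 in part, so the split of reads within each pair is uncertain.

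SSA2 had a log2 fold change of 0.97 ± 0.13, and several partners of Hsp70 rose as well. FES1, which releases nucleotide from cytosolic Hsp70, had 330, 365, 325, 342 and 341 CPM with V5-PSD1, against 148, 184, 174, 197 and 181 CPM with the empty vector, a log2 fold change of 0.95 ± 0.08. The J proteins SIS1, APJ1 and YDJ1 had log2 fold changes of 0.87 ± 0.09, 0.80 ± 0.07 and 0.74 ± 0.07. Those of the Hsp110 genes SSE2 and SSE1 were 0.91 ± 0.16 and 0.72 ± 0.08. SSA3 did not pass (1.11 ± 0.33, edgeR adjusted p = 0.0761). The transcript of HSF1, the transcription factor over many of these genes, did not pass either: it had 165 to 193 CPM with V5-PSD1 and 174 to 217 CPM with the empty vector, a log2 fold change of -0.05 ± 0.09.

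Of 14 genes for Hsp90 and its cochaperones 6 rose, against 2.53% of all genes tested. HSP82, the inducible Hsp90, had 1756, 2152, 2085, 2218 and 2291 CPM with V5-PSD1, against 704, 880, 799, 951 and 814 CPM with the empty vector, with no overlap and a log2 fold change of 1.34 ± 0.14. The constitutive copy HSC82, which shares reads with it, had 0.60 ± 0.09. Among cochaperones, the cyclophilin CPR6 had 1.06 ± 0.13, the Hsp70-Hsp90 adaptor STI1 had 0.92 ± 0.09, and the ATPase activators AHA1 and HCH1 had 0.77 ± 0.09 and 0.67 ± 0.08. None of the 20 genes for chaperones at the ribosome or for nascent chains passed, and their median log2 fold change was 0.04. The 6 Hsp90 genes and the 9 Hsp70 genes past the test passed whichever library was left out.

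Promoters of BTN2, SSA1 and HSP42 are shown because, among the 12 largest rises, only these 3 held the motif searched within 500 bases of the start codon (in the window of 250 bases before to 50 after it, 1 of 12 did, HSP42). Hsf1 is known to bind repeated GAA units in alternating orientation. The motif searched was 3 adjoining units, GAANNTTCNNGAA or its reverse complement TTCNNGAANNTTC, on both strands, so overlapping matches can share units. The window was 500 bases before the start codon in the RefSeq R64 genome. Capitals mark the matches, and each stretch reads 5′ to 3′ on the strand of the gene. They lie at chrVII:772090-772147 on the plus strand (BTN2), at chrI:141660-141815 on the minus strand (SSA1) and at chrIV:806358-806415 on the plus strand (HSP42).
BTN2: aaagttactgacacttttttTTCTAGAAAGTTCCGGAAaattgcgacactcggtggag
SSA1: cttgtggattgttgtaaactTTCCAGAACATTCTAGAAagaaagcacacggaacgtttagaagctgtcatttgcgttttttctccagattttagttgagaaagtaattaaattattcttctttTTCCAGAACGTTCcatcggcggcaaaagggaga
HSP42: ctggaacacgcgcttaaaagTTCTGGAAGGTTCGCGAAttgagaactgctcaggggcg

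Among protein-coding genes that rose, 25 of 149 (16.78%) held this motif within 500 bases of the start codon, and among those that fell 0 of 30 did. Over all 6007 protein-coding genes 89 did (1.482%). In a window of 250 bases before to 50 after the start codon, the shares were 15 of 149 (10.07%) for genes that rose and 47 of 6007 (0.7824%) for all. The 25 genes were AHA1, APA1, BTN2, FES1, HSP10, HSP104, HSP42, HSP60, HSP78, LST8, MSF1, OCA2, OLA1, OPI10, PGK1, RPN4, SIS1, SSA1, SSA2, SSE1, STI1, UBI4, YGP1, YGR210C and ZPR1. Matches between neighbouring genes counted for both, as with LST8 and SIS1 and with YGR210C and ZPR1. These are letter matches and not measured binding sites.

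**Figure D3:**
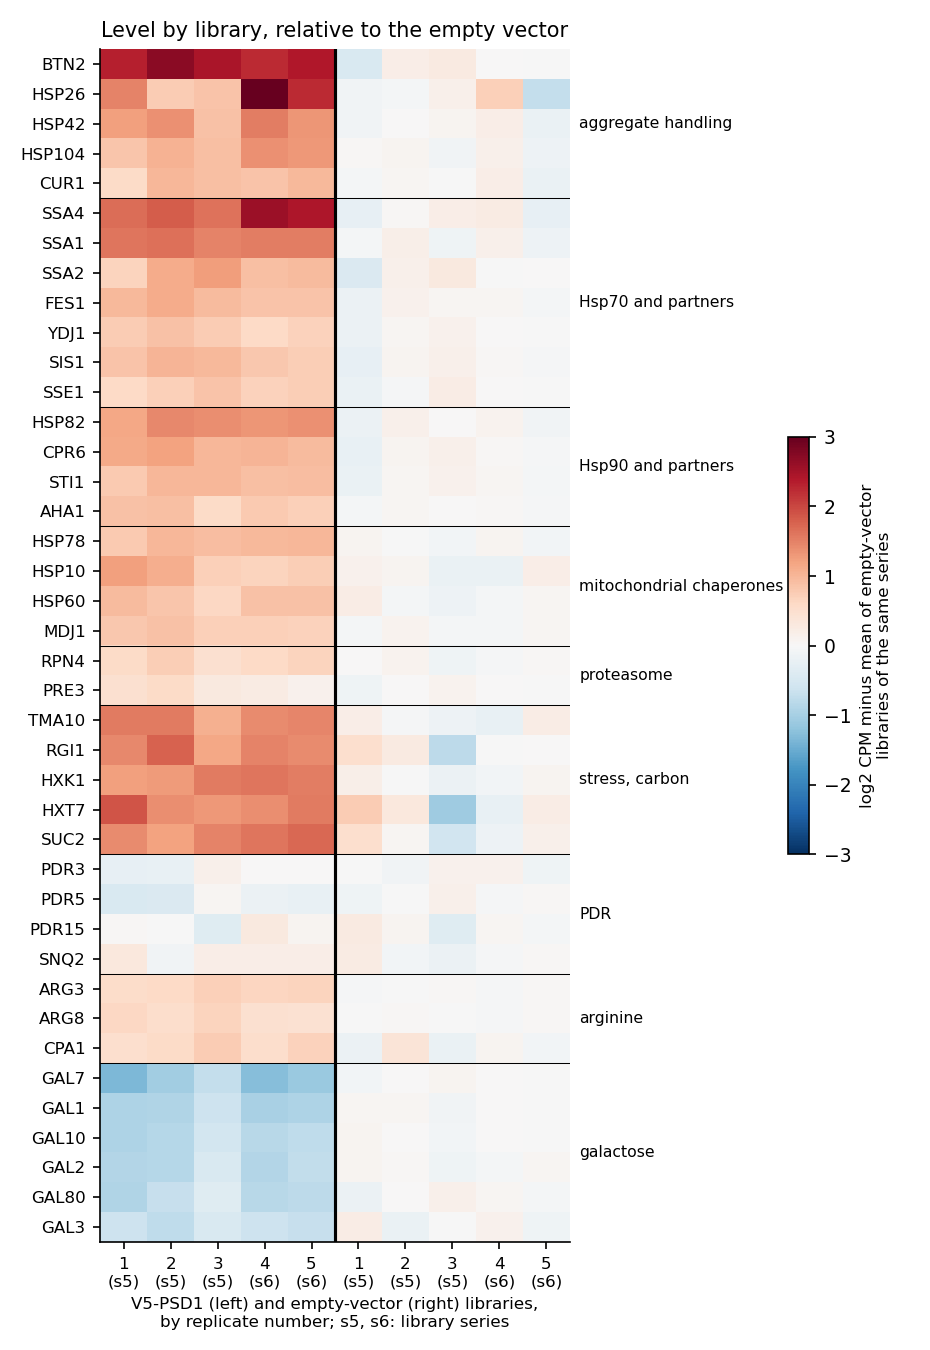
Level of 40 genes in each V5-PSD1 library (left block) and each empty-vector library (right block), as log2 CPM minus the mean of the empty-vector libraries of the same series (s5, s6); red is higher and blue lower, on a scale of -3 to 3. Chaperone rows are red in all 5 V5-PSD1 columns, galactose rows are blue in all 5, and the drug-resistance rows stay near white in both blocks.

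Of 10 genes for chaperones inside mitochondria 5 rose (against 2.53% of all genes tested), and all 5 passed whichever library was left out. HSP78, the mitochondrial disaggregase, had 969, 1125, 1063, 1121 and 1140 CPM with V5-PSD1, against 596, 553, 533, 605 and 532 CPM with the empty vector. HSP60, the chaperonin of the matrix, had 4164, 3834, 3291, 4019 and 4008 CPM with V5-PSD1, against 2482, 2062, 1924, 2110 and 2273 CPM with the empty vector. The groups did not overlap in either gene, and their log2 fold changes were 0.94 ± 0.12 and 0.83 ± 0.11. HSP10, the lid of the chaperonin, had 0.89 ± 0.13, the J protein MDJ1 had 0.76 ± 0.08, and SSC1, the Hsp70 of the matrix and import motor, had 0.55 ± 0.12 (edgeR adjusted p = 0.00993).

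Other mitochondrial lists held few genes past the test, where 2.53% of all genes tested rose. Of 37 import genes 1 rose, SAM37, an outer-membrane sorting subunit, at 0.24 ± 0.06. That call was lost without each library except V5-PSD1 replicate 3 and empty-vector replicate 5, with edgeR adjusted p values up to 0.172, and the 37 genes had a median log2 fold change of 0.15. Of 12 genes for proteases and prohibitins 2 rose, the prohibitins PHB2 and PHB1 (0.37 ± 0.09 and 0.29 ± 0.07). Both were lost without V5-PSD1 replicate 1 or 4 or empty-vector replicate 3 or 4, and PHB1 also without V5-PSD1 replicate 2 or 5 or empty-vector replicate 2 or 5, with values up to 0.0739 and 0.124. Of 67 mitochondrial ribosomal protein genes 1 rose, RSM28 (0.24 ± 0.06), with a median of 0.19. The count for the ribosomal list was 11 without V5-PSD1 replicate 3, 4 without empty-vector replicate 1 or 5, and 0 without V5-PSD1 replicate 1 or 5 or empty-vector replicate 2, 3 or 4. All 67 log2 fold changes were above 0 (3401 of 6278 over all genes tested), and 64 of 67 were with limma on the deposited log2 FPKM values. Of 37 oxidative phosphorylation genes and 12 TCA cycle genes none passed.

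RPN4, the transcription factor of proteasome genes, rose. It had 224, 252, 213, 251 and 266 CPM with V5-PSD1, against 154, 162, 140, 163 and 170 CPM with the empty vector, with no overlap and a log2 fold change of 0.61 ± 0.11 (edgeR adjusted p = 0.00155). Of the 34 genes of the list on the proteasome and RPN4, 6 rose (17.6%, against 2.53% of all genes tested) and 0 fell. Their median log2 fold change was 0.20. Among the subunits, PRE4 of the core particle and RPT4 of the regulatory particle had 0.28 ± 0.06 and 0.24 ± 0.05. RPN4, PRE4 and RPT4 passed whichever library was left out.

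The other 3 did not, so the count was 3 without V5-PSD1 replicate 1, 2 or 4 or empty-vector replicate 1, 2 or 3, 10 without V5-PSD1 replicate 3, and 4 and 9 without empty-vector replicate 5 and V5-PSD1 replicate 5. All 34 log2 fold changes were above 0 under TMM scaling (3401 of 6278 over all genes tested). With limma on the deposited log2 FPKM values 33 of 34 were above 0. For 15 of 34 genes all V5-PSD1 libraries lay above all empty-vector libraries, against 3.78% of all genes tested. Of 18 ubiquitin and Cdc48 genes 3 rose (against 2.53% of all genes tested), the polyubiquitin gene UBI4, the conjugating enzyme UBC4 and the Cdc48 cofactor UFD1. That count was 1 without V5-PSD1 replicate 1, 2 or 4 or empty-vector replicate 1 or 3, and 4 without V5-PSD1 replicate 3.

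**Figure D4:**
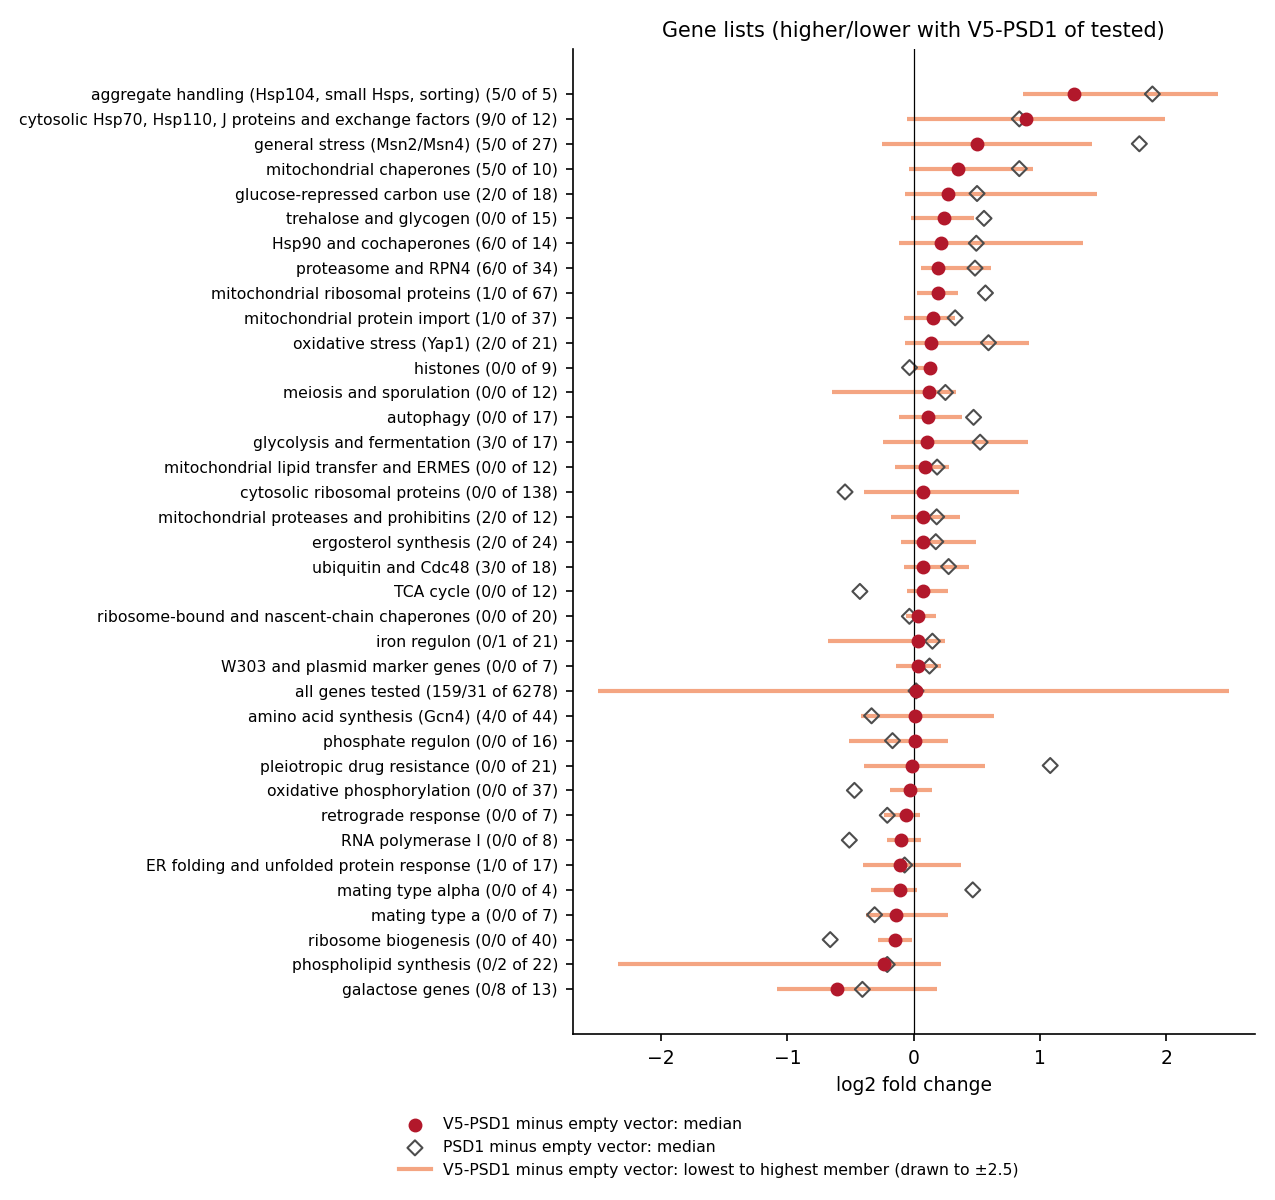
Median log2 fold change of each gene list with V5-PSD1 against the empty vector (red points; lines run from the lowest to the highest member, drawn to 2.5 either side of 0) and with untagged PSD1 against the empty vector (open diamonds). The numbers after each name count members higher and lower with V5-PSD1 of those tested; aggregate handling lies at the top with 5/0 of 5 and galactose genes at the bottom with 0/8 of 13, and both comparisons use the same empty-vector libraries.

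General stress genes under Msn2 and Msn4 rose in 5 of 27 cases (against 2.53% of all genes tested), with a median log2 fold change of 0.50. Values were above 0 for 25 of 27 (24 of 27 under RLE scaling), and for 3401 of 6278 over all genes tested. TMA10, a stress-induced gene of this list, had 222, 219, 155, 193 and 201 CPM with V5-PSD1, against 85.4, 73.1, 66.7, 62.1 and 84.1 CPM with the empty vector. YGP1, a secreted glycoprotein, had 663, 525, 609, 572 and 509 CPM with V5-PSD1, against 428, 385, 394, 325 and 252 CPM with the empty vector. Neither overlapped, and their log2 fold changes were 1.41 ± 0.13 and 0.69 ± 0.12. TMA10 and YGP1 passed whichever library was left out; the list's count was 2 without V5-PSD1 replicate 1 or 2 or empty-vector replicate 3, 4 or 5, 3 without V5-PSD1 replicate 4, and 7, with 1 further gene lower, without V5-PSD1 replicate 3.

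Of 18 genes for glucose-repressed carbon use 2 rose (against 2.53% of all genes tested), HXK1 and SUC2. HXK1, a hexokinase, had 976, 1015, 1225, 1079 and 1033 CPM with V5-PSD1, against 475, 414, 372, 338 and 374 CPM with the empty vector. SUC2, the invertase, had 471, 406, 496, 489 and 526 CPM with V5-PSD1, against 250, 182, 119, 145 and 177 CPM with the empty vector. The groups did not overlap, and the log2 fold changes were 1.43 ± 0.11 and 1.45 ± 0.19. A further pair among the largest rises was HXT7, a high-affinity hexose transporter that shares reads with near-identical copies (1.40 ± 0.26), and RGI1, a gene of energy metabolism (1.41 ± 0.22).

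Of 17 glycolysis and fermentation genes 3 rose, against 2.53% of all genes tested. PGK1, phosphoglycerate kinase, had a log2 fold change of 0.60 ± 0.12, and TDH3, glyceraldehyde-3-phosphate dehydrogenase, had 0.53 ± 0.08. The third was GPM1, phosphoglycerate mutase, at 0.42 ± 0.09, which was lost without V5-PSD1 replicate 1 (edgeR adjusted p = 0.0537).

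None of the 21 pleiotropic drug resistance genes passed in either direction, and their median log2 fold change was -0.015. CIS1 (YLR346C; chromosome XII, 822287 to 822592), which recruits the ATPase Msp1 to the import channel, had 1.58, 0.9, 0.488, 0.634 and 0.822 CPM with V5-PSD1, against 0.569, 0.625, 0.872, 0.569 and 0.314 CPM with the empty vector. Only V5-PSD1 replicates 1 and 2 lay above the empty-vector range, and the log2 fold change was 0.57 ± 0.56 (edgeR adjusted p = 0.621). PDR5, the main drug-efflux pump, had 192, 195, 275, 276 and 270 CPM with V5-PSD1, against 241, 261, 295, 306 and 321 CPM with the empty vector, with overlap and a log2 fold change of -0.24 ± 0.15 (edgeR adjusted p = 0.429).

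A further 4 genes tied to this response did not pass either. PDR3, the transcription factor, had a log2 fold change of -0.05 ± 0.11, the pump PDR15 had -0.01 ± 0.20, the pump SNQ2 had 0.16 ± 0.14 and MSP1 had -0.01 ± 0.07. In cells with untagged PSD1, 16 of the 21 genes rose against the same empty-vector libraries (29.7% of all genes tested rose there), with a median log2 fold change of 1.08.

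Of 13 galactose genes 8 fell (61.5%, against 0.494% of all genes tested) and none rose, with a median log2 fold change of -0.60. For all 8 the groups did not overlap, and 1.23% of all genes tested lay below in this way. GAL7 (YBR018C; chromosome II, 274427 to 275527), the uridylyltransferase of galactose use, had 2050, 2541, 3160, 2228 and 2497 CPM with V5-PSD1, against 4894, 5233, 5518, 5451 and 5283 CPM with the empty vector. GAL1 (YBR020W; chromosome II, 279021 to 280607), the galactokinase, had 6040, 6121, 7430, 5874 and 6005 CPM with V5-PSD1, against 11840, 11825, 10661, 11514 and 11356 CPM with the empty vector. V5-PSD1 replicate 3, which had the most PSD1 transcript, had the highest level of both genes within its group. The log2 fold changes were -1.08 ± 0.13 (edgeR adjusted p = 1.33e-05) and -0.86 ± 0.10 (1.53e-05).

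The same direction held for the epimerase GAL10 (-0.78 ± 0.10), the galactose permease GAL2 (-0.75 ± 0.12), the repressor GAL80 (-0.71 ± 0.11), the aldo-keto reductase GCY1 (-0.60 ± 0.08), the sensor GAL3 (-0.63 ± 0.16) and the cyclin PCL10 (-0.37 ± 0.09). The call of GAL3 was lost without V5-PSD1 replicate 1, 2, 4 or 5 or empty-vector replicate 1, 3 or 4, with edgeR adjusted p values up to 0.0841, and that of PCL10 without V5-PSD1 replicate 1, 2 or 4 or empty-vector replicate 3, with values up to 0.0905. GAL4 itself had 70.1 to 76 CPM with V5-PSD1 and 61.1 to 74 CPM with the empty vector, and its log2 fold change of 0.13 ± 0.07 did not pass (edgeR adjusted p = 0.361). The values for these genes come from cells in which the GAL1-10 promoter also stood on the V5-PSD1 plasmid, and the labels do not say whether the empty plasmid holds it.

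The Gal4 motif in the promoters of these genes is shown next, CGGNNNNNNNNNNNCCG, which is its own reverse complement, so both strands give the same match. Capitals mark matches, which can overlap, and sequences read 5′ to 3′ on the gene's strand in the RefSeq R64 genome. They lie at chrXII:289776-289920 on the plus strand (GAL2), at chrII:278548-278641 on the plus strand (GAL1, in the divergent promoter shared with GAL10) and at chrII:275683-275739 on the minus strand (GAL7).
GAL2: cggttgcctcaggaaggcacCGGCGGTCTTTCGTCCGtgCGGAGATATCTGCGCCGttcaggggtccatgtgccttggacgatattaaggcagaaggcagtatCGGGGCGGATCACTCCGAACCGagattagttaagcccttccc
GAL1: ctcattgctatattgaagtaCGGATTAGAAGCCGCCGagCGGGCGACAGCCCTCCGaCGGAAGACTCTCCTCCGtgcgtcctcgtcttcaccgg
GAL7: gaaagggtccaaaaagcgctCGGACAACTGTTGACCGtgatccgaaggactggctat

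Within 500 bases of the start codon, this motif stood before 15 of the 30 protein-coding genes that fell (50%), before 5 of 149 that rose (3.356%) and before 178 of all 6007 (2.963%). In the window of 250 bases before to 50 after the start codon it stood at 7 of 30, 0 of 149 and 80 of 6007 (1.332%). The 15 genes were FAR1, GAL1, GAL10, GAL2, GAL3, GAL7, GAL80, GCY1, HTC1, MLF3, PCL10, RGL1, RUP1, SDD1 and SFL1. They held 17 distinct matches, of which 5 lay between neighbouring genes and counted for both. The 5 genes that rose with the motif were HOM2, HSP10, SOL3, SSA4 and ZWF1. The motif and the longer window were chosen after the falls were seen.

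Several of the largest falls outside the galactose list carried the motif. SDD1 (YEL057C; chromosome V, 45020 to 45721) had 46.1, 47.1, 50.6, 40.9 and 46.1 CPM with V5-PSD1, against 104, 95.4, 109, 112 and 97.8 CPM with the empty vector. FAR1, the cyclin-dependent kinase inhibitor of the pheromone response, had 288, 353, 429, 330 and 361 CPM with V5-PSD1, against 547, 657, 682, 716 and 654 CPM with the empty vector. Neither overlapped, with log2 fold changes of -1.17 ± 0.13 and -0.88 ± 0.10. The neighbours RGL1, a regulator of Rho1 signalling, and HTC1 had -0.97 ± 0.13 and -0.62 ± 0.09, and the strand used for counting is not given.

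Falls without the motif included OPT2, an oligopeptide transporter, with 112, 109, 90.3, 114 and 118 CPM with V5-PSD1, against 265, 218, 198, 234 and 220 CPM with the empty vector. Its log2 fold change was -1.06 ± 0.18 (edgeR adjusted p = 0.0012). YFL067W, near the end of chromosome VI, had the most negative value among genes past the test with at least 5 CPM, -1.23 ± 0.31. Its call was lost without V5-PSD1 replicate 1, 2 or 5 or empty-vector replicate 1, 2 or 3, with edgeR adjusted p values up to 0.112.

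In phospholipid synthesis, the pathway in which Psd1 works, 2 of 22 genes fell (9.09%, against 0.494% of all genes tested) and 0 rose. The list leaves out PSD1 itself. Its median log2 fold change was -0.23, and 19 of 22 values were below 0, while 3401 of 6278 over all genes tested were above 0. The 2 that fell were EPT1, the ethanolamine phosphotransferase, at -0.44 ± 0.10, and EKI1, an ethanolamine kinase, at -0.33 ± 0.08. Both act in the route that makes phosphatidylethanolamine from ethanolamine without Psd1. EPT1 had 78.2, 73.4, 78.3, 56.5 and 59 CPM with V5-PSD1, against 96.4, 88.8, 94.8, 114 and 70.8 CPM with the empty vector, so the ranges overlapped.

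Both calls rested on single libraries. EPT1 was lost without V5-PSD1 replicate 4 or 5 or empty-vector replicate 4, with edgeR adjusted p values up to 0.0896. EKI1 was lost without V5-PSD1 replicate 1, 2 or 4 or empty-vector replicate 1 or 4, with values up to 0.0914. PSD2, the second phosphatidylserine decarboxylase, had -0.24 ± 0.11 (edgeR adjusted p = 0.281), and CHO1, the phosphatidylserine synthase, had -0.37 ± 0.29 (0.539). INO1, which makes inositol phosphate and answers to inositol and choline, ranged from 77.9 to 3327 CPM with V5-PSD1 and from 116 to 7514 CPM with the empty vector, so its log2 fold change of -2.34 ± 1.07 did not pass (edgeR adjusted p = 0.265).

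Arginine synthesis genes gave the 2 steadiest of the 4 rises among 44 amino acid synthesis genes under Gcn4, a list with a median log2 fold change of 0.01. Over all genes tested 2.53% rose. ARG3, ornithine carbamoyltransferase, had 434, 446, 485, 432 and 444 CPM with V5-PSD1, against 290, 296, 302, 273 and 285 CPM with the empty vector. ARG8, the mitochondrial acetylornithine aminotransferase, had 188, 176, 193, 173 and 169 CPM with V5-PSD1, against 120, 125, 120, 121 and 127 CPM with the empty vector. The groups did not overlap, and the log2 fold changes were 0.63 ± 0.11 (edgeR adjusted p = 0.0012) and 0.55 ± 0.08 (8.55e-05). The other 2 rested on single libraries: CPA1 was lost without each library except empty-vector replicate 2 (edgeR adjusted p up to 0.12), and HOM2 without V5-PSD1 replicate 1 or 4 or empty-vector replicate 1, 3 or 4 (up to 0.0961).

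Lists on growth did not pass. None of 138 cytosolic ribosomal protein genes passed (median log2 fold change 0.08, and 0.01 with limma on the deposited log2 FPKM values), nor any of 40 ribosome biogenesis genes, although all 40 log2 fold changes were below 0 (median -0.15) under each of the 6 scalings compared. Over all genes tested, 3401 of 6278 values were above 0 under TMM scaling. Without V5-PSD1 replicate 3, 2 ribosome biogenesis genes were lower and 1 of the autophagy genes was higher. None passed among genes of RNA polymerase I (8 genes), trehalose and glycogen (15), the retrograde response (7), the phosphate regulon (16), lipid transfer (12), autophagy (17) or histones (9). Over all genes tested 2.53% rose and 0.494% fell. Of 17 genes of the unfolded protein response in the endoplasmic reticulum 1 rose, the thiol oxidase ERV2 at 0.37 ± 0.10, and of 21 iron genes 1 fell, AFT1, their activator, at -0.34 ± 0.08. Of 24 ergosterol genes 2 rose, ERG28 at 0.49 ± 0.07 and ERG26 at 0.24 ± 0.06, and of 21 oxidative stress genes 2 rose, the peroxiredoxin AHP1 at 0.91 ± 0.17 and the thioredoxin TRX2 at 0.49 ± 0.13.

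Of these, ERG28 and AHP1 passed whichever library was left out. Without V5-PSD1 replicate 1, 2 or 4 or empty-vector replicate 3, the other 4 genes were all lost. Empty-vector replicate 4 was needed as well for ERV2, ERG26 and TRX2, and empty-vector replicate 5 for ERV2, AFT1 and TRX2. ERV2 and ERG26 were lost without empty-vector replicate 2, ERG26 and TRX2 without empty-vector replicate 1, and ERG26 without V5-PSD1 replicate 3. The highest edgeR adjusted p values in these omissions were 0.153 for ERV2, 0.0877 for AFT1, 0.128 for ERG26 and 0.133 for TRX2. The oxidative stress count was 4 without V5-PSD1 replicate 3.

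The 5 V5-PSD1 libraries differed among themselves. On the first principal component of all 22 libraries (35.31% of variance) they lay at 8.5, -0.9, -26.6, -8.2 and -19.0, against -33.6 to -23.7 in empty-vector libraries, so that V5-PSD1 replicate 3 lay among the empty-vector libraries. The median difference of the aggregate and Hsp70 genes from the empty-vector libraries of the same series was 0.86, 0.99, 0.87, 0.89 and 0.97 (log2) in replicates 1 to 5. For general stress genes it was 0.68, 0.37, -0.03, 1.15 and 0.66. For mitochondrial ribosomal protein genes it was 0.44, 0.24, 0.03, 0.09 and 0.17, and for galactose genes -0.62, -0.52, -0.37, -0.63 and -0.63. By these medians V5-PSD1 replicate 3, which had the most PSD1 transcript, was the lowest in general stress and mitochondrial ribosomal protein genes. Of the series 5 empty-vector libraries, replicate 3 also had the lowest summed level of both lists. The sums were 4065.7 against 5531.7 and 6102.6 CPM, and 8462.4 against 11130 and 9333.1 CPM, so these ranks may depend on the reference. For aggregate and Hsp70 genes V5-PSD1 replicate 3 lay close to V5-PSD1 replicate 1, the lowest. Single chaperone genes went both ways by this difference. HSP42, SSA4, SSA1, AHA1 and HSP60 were lowest in replicate 3, while SSA2 (1.26) and SSE1 (0.86) were highest there.

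Whether the effect of V5-PSD1 differed between library series was tested with an interaction term. No gene passed at an edgeR adjusted p below 0.05 (0 of 6278, 0%), the smallest adjusted p was 0.842, and 104 genes (1.66%) had an unadjusted p below 0.05. DESeq2 gave 1 gene higher, YBR117C, and 1 lower, the Ty entry YPL257W-B. Each group had few libraries in each series, so the test could miss a difference, and its result does not show equal effects.

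The tagged and untagged plasmids were compared directly. Their levels of PSD1 transcript, given above, overlapped only through PSD1 replicate 3, and every other PSD1 library lay below all V5-PSD1 libraries. PSD1 transcript was higher with V5-PSD1 by 0.69 on the log2 scale (edgeR adjusted p = 0.0383). How much of the differences below goes with that level was not tested. V5-PSD1 cells were higher than PSD1 cells in 1264 genes (20.1%) and lower in 1277 (20.3%) of 6278, 40.5% in either direction, at an edgeR adjusted p below 0.05, and by at least 2-fold in 16 and 111 (0.255% and 1.77%). The count of 16 was 25 without V5-PSD1 replicate 1 and 10 without V5-PSD1 replicate 5. Drug resistance genes were among the largest differences. CIS1 had 0.488 to 1.58 CPM with V5-PSD1, against 53.5 ± 35.3 CPM with PSD1 (SD, n = 6), a log2 difference of -5.98 (edgeR adjusted p = 2.71e-08), and PDR5 had 192 to 276 CPM with V5-PSD1, against 2435 ± 683 CPM with PSD1, a log2 difference of -3.30 (3.43e-11).

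Chaperone genes split into those that differed between the plasmids and those for which no difference passed. With V5-PSD1, 8 of 10 mitochondrial chaperone genes were lower than with PSD1 (median log2 difference -0.38), against 20.3% of all genes tested. Of 14 Hsp90 genes 4 were lower and 1 was higher. Of the 12 genes of the Hsp70 list 2 were lower and 1 was higher. Among aggregate genes 2 of 5 were lower. Over all genes tested 20.3% were lower and 20.1% higher, and the Hsp70 counts lay below both shares. Of 20 genes for chaperones at the ribosome or for nascent chains, 8 were higher, against 20.1% of all genes tested. HSP26 averaged 256 ± 94.6 CPM with V5-PSD1 (SD, n = 5) and 1199 ± 141 CPM with PSD1 (SD, n = 6), a log2 difference of -2.35. SSA3 differed by -2.54. BTN2, SSA1, FES1 and SIS1 had log2 differences of 0.18, -0.22, -0.01 and -0.06, none past the test (edgeR adjusted p of 0.46, 0.11, 0.92 and 0.55), although SSA1 passed at -0.29 without PSD1 replicate 2 (0.0193). TMA10 differed by -1.05 and HSP104 by -0.27, the second not past the test (edgeR adjusted p = 0.19).

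ARG3 went the other way. It had 432 to 485 CPM with V5-PSD1, against 144 ± 21.9 CPM with PSD1 (SD, n = 6), so V5-PSD1 cells were higher than both other groups, by 1.63 (edgeR adjusted p = 2.67e-09) against PSD1 and 0.63 against the empty vector on the log2 scale. ARG8 was higher by 1.07 against PSD1. With a mean of at least 5 CPM and the same direction in both library series, the other 6 genes among the 8 largest rises against PSD1 were ZPS1 (2.45), ADH4 (1.82), YOR387C (1.69), ENA2 (1.66), the zinc transporter ZRT1 (1.45) and RTC4 (1.11). ENA2 and YOR387C share reads with near-identical copies. Single libraries decided 3 of these calls. ZPS1 was lost without V5-PSD1 replicate 4 (edgeR adjusted p = 0.0547). ZRT1 was lost without V5-PSD1 replicate 4 or 5 or PSD1 replicate 4, 5 or 6 (up to 0.113), and YOR387C without V5-PSD1 replicate 4 or 5 or PSD1 replicate 3, 4, 5 or 6 (up to 0.206). Within series 5 alone ZPS1, ADH4, ENA2, ZRT1 and RTC4 had log2 differences of 0.40, 0.54, 1.86, 0.18 and 0.61, none past the test. GAL1 did not differ past the test between the plasmids (-0.14, edgeR adjusted p = 0.26), and GAL7 had a log2 difference of -0.49 (0.0032).

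**Figure D5:**
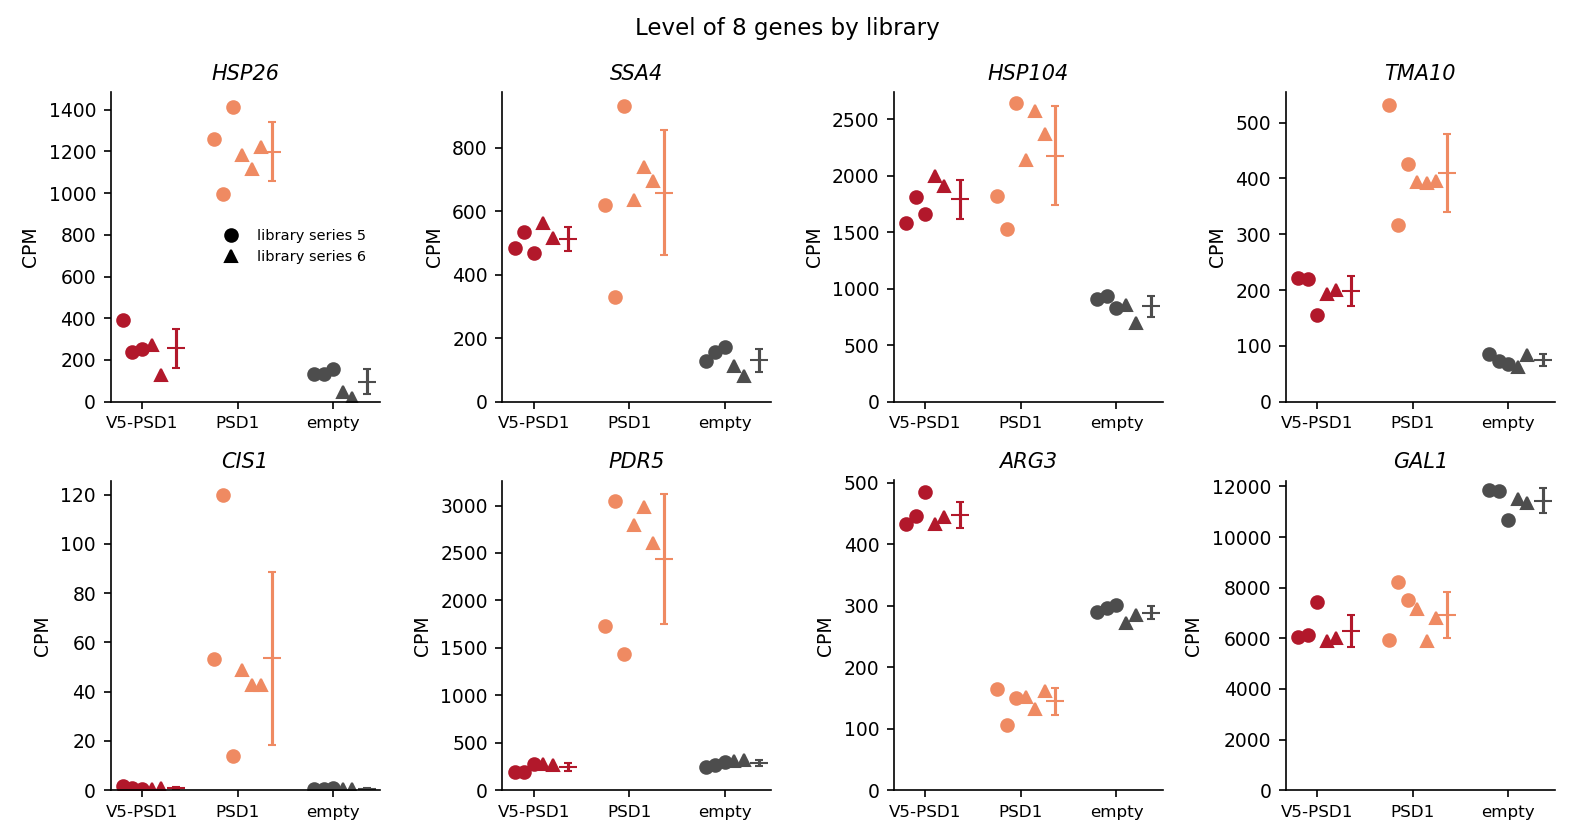
CPM of 8 genes in each V5-PSD1, PSD1 and empty-vector library (circles series 5, triangles series 6), with the mean and SD of each group; each panel has its own axis from 0. CIS1 and PDR5 stand high with PSD1 only, SSA4, HSP104 and TMA10 are above the empty vector in every V5-PSD1 library, GAL1 is below it in every V5-PSD1 library, and ARG3 lies above the empty vector with V5-PSD1 and below it with PSD1.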

How the data were processed

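PolyA RNA of 22 yeast libraries in 4 groups was sequenced, with RNeasy extraction and NeoPrep library preparation per the labels. The authors deposited RSEM expected counts of each gene, already rounded to whole numbers. A second deposited table holds log2 values of FPKM with 1 added. Per the submitters' processing notes, the tools were SAMtools 1.3, RSEM 1.3.0 and STAR 2.5.3a, on build sacCer3; annotation, strand setting and filters were not given in the sources used, so overlapping genes and near-identical copies are uncertain. Of 7126 entries, 6048 matched a locus of the R64 annotation, and the 1078 others held 1.68% to 3.05% of a library's counts. The 2 columns per table whose replicate number did not match their label were joined by library number.

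Counts of all 22 libraries were fitted with edgeR 4.0.16 in R 4.3.3 (quasi-likelihood test, TMM scaling, filterByExpr by group, terms for group and library series), with Benjamini-Hochberg adjustment over 6278 genes and a threshold of 0.05. The SE is the size of the log2 fold change divided by the square root of F. Log2 CPM used a prior count of 2. On simulated counts for 6258 genes in this comparison, changes of 1.5-fold, 2-fold and 4-fold were planted in 67, 67 and 66 genes. These genes had a mean above 5 CPM, so lower genes such as CIS1 are not covered. Recovery was 77.61%, 97.01% and 100%, and 5.67% of calls were unchanged genes. The simulation held no series effect and no change in the other groups. DESeq2 1.42.0 and limma 3.58.1 (pseudocounts of 1 and 0.1 FPKM) served as alternatives, beside other scalings, filters, sample sets and a replicate block. Motifs and figures were made in Python 3.11.15 with pandas 2.3.3, numpy 2.4.6 and matplotlib 3.10.9.

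The genes compared and the 36 gene lists were chosen with earlier results of these data known. Genes named by rule were 8 fixed genes, the 12 largest rises and 12 largest falls past the test with at least 5 CPM, the same sign in both series and a match to the annotation, up to 4 members of each list that passed (2 where none did), up to 8 genes each way against PSD1, and loci within 2 kb of PSD1; any other gene was chosen after its values were seen. The labels do not say whether replicates were separate cultures, so p-values measure the spread between these samples, which may be technical.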

Additional observations from a re-analysis of the deposited data

Results flagged for a closer look

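Among 230 sets of 5 values (named genes in V5-PSD1 or empty-vector libraries), 11 had 1 library far from the other 4, by a gap of more than 0.71 of the range; chance gives about 1 in 20. In V5-PSD1 replicate 3, GAL1 had 7430 CPM against 5874 to 6121 in the other 4 libraries. GAL10 had 7093 CPM there (others 5446 to 5707), GAL2 had 3991 CPM (2788 to 3074), ARG3 had 484.8 CPM (432.3 to 445.7) and STE2 had 637.5 CPM (418.7 to 451.6). In V5-PSD1 replicate 1, STI1 was low at 1518 CPM (1746 to 1770 in the others) and SKO1 at 122 CPM (144.1 to 151.9). In V5-PSD1 replicate 2, SNQ2 was low at 199.4 CPM (247.5 to 266.1) and RPL3 at 2002 CPM (2122 to 2161). Among empty-vector libraries, SSA2 was low in replicate 1 at 1773 CPM (2674 to 2943) and UBC4 was high in replicate 3 at 492.5 CPM (373.4 to 404.2). None of these was tested further.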

How the results depend on the processing

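The PSD1 rise stayed between 5.68 and 6.02 (log2) and past the threshold under each alternative and omission of 1 library. Against the empty vector, 159 genes higher and 31 lower became 81 higher with the 10 libraries fitted alone, 89 higher and 49 lower with limma on FPKM (both pseudocounts), 61 lower with DESeq2 (217 higher), and 13 higher and 1 lower in series 5 alone. Leaving out 1 library gave 89 to 316 higher and 18 to 67 lower. The counts at 2-fold or more, 25 higher and 5 lower, became 5 and 1 in series 5 alone and 39 and 3 in series 6 alone, with 20 to 28 and 3 to 5 when 1 library was left out; the lower value of 3 came without V5-PSD1 replicate 1, 2 or 5 or empty-vector replicate 2 or 3. Against PSD1, series 5 alone gave 287 higher and 313 lower, with 5 higher and 72 lower by at least 2-fold; limma on FPKM plus 1 gave 10 higher by at least 2-fold. Omissions gave 1064 to 1330 higher, 1068 to 1380 lower, 10 to 25 and 95 to 155 by at least 2-fold. The interaction gave 0 genes in each omission and 1 higher and 1 lower with DESeq2. YOR387C against PSD1 was 1.69 and reversed to -0.06 in series 5 alone. Of 78 named results past the threshold, 16 kept the call under each alternative, and of 42 others 2 (PDR5 and PHO84) passed under some. The cause of these shifts was not tested; series 5 alone and the omissions hold fewer libraries. With the replicate number as a block, 252 genes were higher and 124 lower over the 10 libraries, 11 of them lower by at least 2-fold, and 238 and 55 over all 22. The replicate numbers are not known to pair samples: same-numbered deviations correlated at 0.263, -0.026, 0.59, 0.026 and 0.245, and V5-PSD1 replicates 2 and 4 correlated best with empty-vector replicates 4 and 5. Taken from the means of group and series, the correlations were 0.405, 0.104, 0.456, 0.073 and 0.073, each the best match of that V5-PSD1 library within its series (empty-vector replicate 2 matched V5-PSD1 replicate 1 better, at 0.141), as a hint from the data; with 2 libraries a group in series 6, its 2 values are equal by construction. Depth limits low genes such as CIS1, whose SE was 0.56.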

Other observations

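Genes outside the lists, chosen after their values were seen, included enzymes of the oxidative pentose phosphate pathway. ZWF1, glucose-6-phosphate dehydrogenase, had 662, 597, 564, 655 and 567 CPM with V5-PSD1, against 440, 475, 452, 487 and 456 CPM with the empty vector, a log2 fold change of 0.40 ± 0.07 (edgeR adjusted p = 0.00141). GND1, 6-phosphogluconate dehydrogenase, had 1140, 1066, 1150, 946 and 955 CPM with V5-PSD1, against 774, 758, 787, 777 and 775 CPM with the empty vector, a log2 fold change of 0.44 ± 0.08 (edgeR adjusted p = 0.00309). SOL3, a 6-phosphogluconolactonase, had a log2 fold change of 0.40 ± 0.07. The groups did not overlap in these genes, and each passed whichever library was left out, but not within either library series alone.

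The G1 cyclins CLN3 and CLN2 fell alongside FAR1, again as genes chosen after their values were seen. CLN2 had 267, 258, 245, 267 and 302 CPM with V5-PSD1, against 326, 363, 355, 365 and 377 CPM with the empty vector, a log2 fold change of -0.42 ± 0.07 (edgeR adjusted p = 0.000635). CLN3 had 224, 229, 238, 215 and 256 CPM with V5-PSD1, against 295, 329, 337, 323 and 298 CPM with the empty vector, a log2 fold change of -0.45 ± 0.09 (edgeR adjusted p = 0.00993). Neither gene's groups overlapped, and both passed whichever library was left out.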
